A study of Homo sapiens with 4 samples.

Results

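The 10 genes described here serve the presentation of antigens on MHC class II. They were chosen by name, from the non-control spots of 4 one-color whole genome arrays, and were represented by 17 probes and 26 spots per array out of 27193 genes, 34127 probes and 43118 spots. The arrays compared the human cell line MCF10A.B2 with MCF10A.B2 cells carrying a tetracycline inducible shRNA against PAK1, a serine/threonine kinase, with 2 arrays per group. MCF10A is an immortalized, basal-like mammary epithelial line, and the B2 derivative expresses a chimeric ErbB2 (Her2) that is switched on by the crosslinker AP1510. Both groups were grown in medium with 5% horse serum, serum starved for 3 h and given AP1510 for 15 min, so neither group was without an active ErbB2. The 2 control arrays were labelled only as control or Pak1 wild type, and the study's methods describe these cells as lacking the shRNA; no arrays of a non-targeting shRNA were analysed here. Whether the shRNA was switched on by tetracycline before the RNA was collected was not given in the sources used here. The series text speaks of cells from separate tumors, whereas the sample labels name a cultured cell line, so p-values measure the spread between these arrays, which may be technical.

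MHC class II molecules are pairs of an alpha and a beta chain that hold peptides from engulfed material on the cell surface, where CD4+ T cells read them. The chains (HLA-DR, HLA-DP and HLA-DQ) assemble on the invariant chain CD74, proteases such as cathepsin S cut CD74 down in endosomes, and HLA-DM, a pair of HLA-DMA and HLA-DMB, exchanges its last fragment for peptide. Professional antigen presenting cells express these genes constantly, whereas epithelial cells usually do so only under interferon gamma, which acts through IRF1 and other factors on CIITA, a coactivator that binds no DNA itself and docks on factors already sitting on class II promoters.

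These factors bind short boxes upstream of the genes: the RFX complex binds the X box, and NF-Y binds the Y box, a CCAAT box that often lies inverted (ATTGG). Promoter sequence from RefSeq (build GRCh38.p14) matched 7 of the 10 genes, in 8 entries; HLA-DRA, CIITA and CTSS were not matched. The 250 bases before the start of 4 of them are shown 5′ to 3′ on the strand of the gene, because CIITA docks there and these genes stand for the different results given below: HLA-DMA and HLA-DRB1 rose, HLA-DMB did not pass the test and CD74 was at background. Capitals mark CCAAT or ATTGG and the run CTGATGATG of the X box.

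HLA-DMA, chr6:32953098-32953347, minus strand: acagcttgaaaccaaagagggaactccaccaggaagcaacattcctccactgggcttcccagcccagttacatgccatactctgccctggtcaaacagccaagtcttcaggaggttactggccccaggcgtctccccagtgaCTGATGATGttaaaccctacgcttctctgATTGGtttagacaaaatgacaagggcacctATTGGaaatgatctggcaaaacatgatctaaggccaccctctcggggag
HLA-DRB1, chr6:32589849-32590098, minus strand: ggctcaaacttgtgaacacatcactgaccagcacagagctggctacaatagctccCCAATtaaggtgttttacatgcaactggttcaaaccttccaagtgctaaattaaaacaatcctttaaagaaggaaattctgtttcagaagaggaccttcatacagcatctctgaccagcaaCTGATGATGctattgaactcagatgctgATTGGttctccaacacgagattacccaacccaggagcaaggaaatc
HLA-DMB, chr6:32941029-32941278, minus strand: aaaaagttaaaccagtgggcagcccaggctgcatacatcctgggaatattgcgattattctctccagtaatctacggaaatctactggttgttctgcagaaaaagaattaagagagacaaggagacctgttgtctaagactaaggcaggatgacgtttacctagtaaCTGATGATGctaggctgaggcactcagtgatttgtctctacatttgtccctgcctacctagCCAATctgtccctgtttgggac
CD74, chr5:150412911-150413160, minus strand: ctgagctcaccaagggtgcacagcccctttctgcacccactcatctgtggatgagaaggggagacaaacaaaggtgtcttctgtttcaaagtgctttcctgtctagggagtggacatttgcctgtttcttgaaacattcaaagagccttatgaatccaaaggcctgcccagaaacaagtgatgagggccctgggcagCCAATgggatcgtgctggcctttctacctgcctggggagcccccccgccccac

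The run CTGATGATG was chosen for the search after the sequences had been seen. It lay 108 to 100 bases before the start in HLA-DMA, 83 to 75 bases before it in HLA-DMB and 74 to 66 bases before it in HLA-DRB1. With both strands searched, it was present in 3 of the 7 matched genes, and in 0.222% of 35116 promoter windows of the same length. A CCAAT box on either strand was present in 6 of the 7 genes, HLA-DPA1 being the exception, and in 32.0% of all windows. HLA-DMA and HLA-DRB1 held it inverted nearer to the start than the X box run, whereas HLA-DMB held it in the forward direction. The interferon-stimulated response element core (GAAA, any 2 bases, GAAA) was found in 0 of the 7 genes and in 3.02% of all windows, and the gamma-activated site core (TTCNNNGAA) in 1 of the 7, HLA-DQA1, and in 6.57%. HLA-DMA and HLA-DMB thus shared the X box run, and its part in their values on the arrays was not tested. These matches are descriptions of the letters only.

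All levels below are log2 intensities after background correction and quantile normalization, and all differences are PAK1 shRNA minus control on that log2 scale. A probe's level was not set against another probe's as a measure of expression, since probes differ in how well they bind. Tests are limma's, with p-values adjusted by Benjamini-Hochberg over the 21911 genes tested and a threshold of 0.05. The difference between the groups was wide on these arrays: 30.9% of all genes tested were called higher in PAK1 shRNA cells and 32.1% lower, 63% in all, and groups did not overlap for 81.8% of genes. Arrays of a group correlated at 0.998 over genes, and between 78.9% and 83.1% of probes were well above background on each array. All 4 arrays lay on 1 slide. The targeted gene, PAK1, was at 11.19 and 11.27 in control cells and at 10.44 and 10.51 in PAK1 shRNA cells, a fall to 59.4% of control (difference -0.75, SE 0.08, adjusted p = 0.000162). It turned to 0.16 in 1 setting, normexp fitted on all spots with median centring.

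Of the 10 class II genes, 9 were tested. 5 rose in PAK1 shRNA cells (CTSS, CIITA, HLA-DMA, HLA-DPA1 and HLA-DRB1), 0 fell and 4 did not pass the test (HLA-DRA, HLA-DPB1, HLA-DQA1 and HLA-DMB), and CD74 was at background. The 5 of 9 that rose stand beside the 30.9% of all genes tested that were called higher, and the 0 that fell beside the 32.1% called lower. The same 5 of the 9 passed an unadjusted p of 0.05. The median difference of the 9 was 0.24, beside 0.017 over all genes tested. The median of the 9 was 0.45 with Agilent's processed signal and 0.40 with median centring, and it turned to -0.21 with normexp fitted on all spots and median centring. A probe was tested if it was well above background in either group; CTSS passed only through the PAK1 shRNA arrays and HLA-DRA only through the control arrays, so a difference there was built in. The groups did not overlap for 7 of the 9, against 81.8% of all genes. The members called higher were the coactivator CIITA, the HLA-DMA chain of the editor, the protease CTSS and the chains HLA-DPA1 and HLA-DRB1. The HLA-DMB chain of the editor did not pass the test, and the invariant chain CD74 could not be tested.

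**Figure D1:**
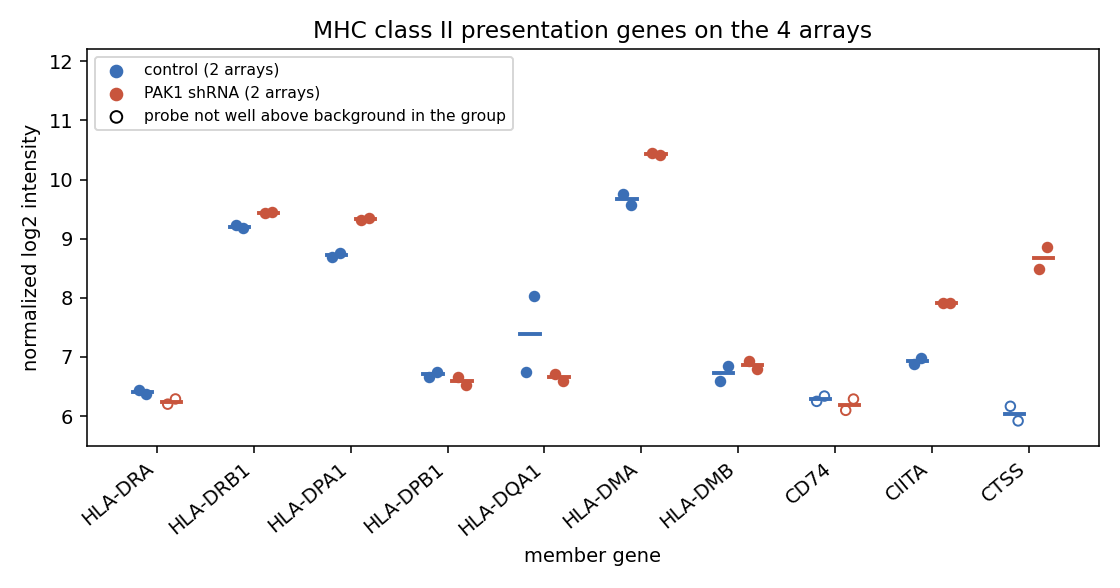
Normalized log2 intensity (vertical axis) of each class II presentation gene (horizontal axis) on the 2 control arrays (blue) and the 2 PAK1 shRNA arrays (red), from the probe that stands for the gene; short lines are group means, and open points mark a group in which the probe was not well above background. CTSS rises from background at 5.92 and 6.17 to 8.49 and 8.86, whereas CD74 is at background in both groups, and a single control array of HLA-DQA1 stands at 8.03.

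CIITA, the master coactivator of class II transcription, rose to 198% of control at the probe that stands for it. This probe (chr16:11018667-11018726, plus strand, in the hg19 coordinates of the array) read 6.87 and 6.98 in control cells and 7.91 and 7.92 in PAK1 shRNA cells. Both PAK1 shRNA arrays were above both control arrays, with a difference of 0.98 (SE 0.08, 95% confidence interval 0.80 to 1.17, adjusted p = 4.84e-05 by limma). The other CIITA probe lies 22069 bases upstream in the gene (chr16:10996598-10996657) and read 6.89 and 6.88 against 6.96 and 7.05. There the difference was 0.12 (SE 0.08, adjusted p = 0.224 by limma with each probe tested apart), so the rise was seen at the downstream probe and did not pass the test at the upstream one. With the mean over both probes the CIITA difference was 0.55 and remained past the threshold, and with normexp fitted on all spots and median centring the sign turned to -0.21 (adjusted p = 0.111). Exon and isoform annotation of that build was not used here.

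CTSS, cathepsin S, the protease that makes the last cuts in the invariant chain, showed the largest difference among the members. Its probe (chr1:150703513-150703572, minus strand) read 6.17 and 5.92 in control cells, where it was not well above background on either array, and 8.49 and 8.86 in PAK1 shRNA cells, where it was on both. The control level is therefore only a bound. Set against the higher of its own level and the lowest level well above background, the rise came to 5.78-fold or more. That floor, 6.13 on control array 2, may be too low for some probes. CD74 read 6.34 on that array without being well above background. The p-value belongs to the fitted difference of 2.635 (adjusted p = 9.76e-06 by limma). CTSS passed the filter only through the PAK1 shRNA arrays, so a difference was built into this test. Both PAK1 shRNA arrays were above both control arrays. The bound moved with the background correction, from at least 2.72-fold with normexp fitted on all spots to at least 29.2-fold with Agilent's processed signal, and it was at least 1.49-fold, with the call kept, where median centring was added to the fit on all spots.

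Of the HLA-DM chains, which edit the peptide cargo, HLA-DMA rose and HLA-DMB did not pass the test. HLA-DMA read 9.75 and 9.58 in control cells and 10.44 and 10.41 in PAK1 shRNA cells at the probe chr6:32916566-32916625 (minus strand). The rise was 0.76 (SE 0.09, 95% confidence interval 0.56 to 0.97, adjusted p = 0.000262 by limma), or 170% of control. The other HLA-DMA probe (chr6:32917418-32917477) read 9.16 and 9.002 against 9.74 and 9.81, a rise of 0.70 (adjusted p = 0.000292 by limma with each probe tested apart), so both probes of the gene gave the same call. HLA-DMB read 6.60 and 6.85 against 6.93 and 6.79 at its only probe (chr6:32902504-32902563). These levels were near the lowest levels well above background, between 6.08 and 6.17 on the arrays, which limits what can be seen there. The groups overlapped, and the difference was 0.14 with a 95% confidence interval from -0.12 to 0.40 (adjusted p = 0.314 by limma). It passed the threshold with Agilent's processed signal (0.45) and with median centring (0.40), and turned to -1.17 with normexp fitted on all spots and median centring. Whether HLA-DMA and HLA-DMB differ in their response was not tested.

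Among the chains that bind peptide, HLA-DPA1, the alpha chain of HLA-DP, had the largest rise. Its brighter probe (chr6:33036886-33036945, minus strand) read 8.69 and 8.75 in control cells and 9.31 and 9.34 in PAK1 shRNA cells, a difference of 0.60 (SE 0.07, adjusted p = 0.000394 by limma), or 152% of control. The other HLA-DPA1 probe (chr6:33032848-33032907) read 8.04 and 8.06 against 8.28 and 8.21. There both PAK1 shRNA arrays were also above both control arrays, but the difference was 0.20 and missed the threshold (SE 0.07, adjusted p = 0.0537 by limma with each probe tested apart).

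HLA-DPB1, the beta chain that pairs with HLA-DPA1, had 4 probes, and none passed the test. The brightest read 6.66 and 6.75 against 6.67 and 6.52, and its coordinates (chr6:33052981-33053587, plus strand) span 607 bases for a probe of 60, as for a probe across a splice junction. The groups overlapped, with a difference of -0.11 and a 95% confidence interval from -0.31 to 0.096 (adjusted p = 0.306 by limma). The other 3 probes gave -0.098, -0.082 and -0.022, and 2 of the 4 were well above background on 3 arrays and 1 on 2 arrays. The HLA-DPB1 difference changed sign to 0.17 with median centring, 0.28 with Agilent's processed signal and 0.072 in the authors' processed values, without passing the test, and it was called lower at -1.41 with normexp fitted on all spots and median centring.

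HLA-DRB1, the beta chain of HLA-DR, rose slightly. Its probe (chr6:32548524-32548583, minus strand) was printed 10 times on each array and averaged 9.22 and 9.17 in control cells and 9.44 and 9.44 in PAK1 shRNA cells. The SD over the 10 spots of an array was between 0.046 and 0.11, and the difference was 0.24 (SE 0.07, 95% confidence interval 0.068 to 0.42, adjusted p = 0.0242 by limma), or 118% of control. The call was lost with median centring (0.18, adjusted p = 0.0907), in the authors' processed values (0.18, adjusted p = 0.0863) and, of the 4 arrays left out in turn, without control array 2 (adjusted p = 0.0857), PAK1 shRNA array 1 (0.0852) or PAK1 shRNA array 2 (0.101). Before normalization the mean spot intensity of HLA-DRB1 was 786 and 585 in control cells and 572 and 568 in PAK1 shRNA cells, while the median spot of the whole array was also brighter in control cells, at 501 and 384 against 326 and 319. The direction of the HLA-DRB1 difference thus rested on the normalization between arrays. HLA-DRB genes are near-identical copies, so which copy the signal of this probe came from is uncertain. Before normalization the groups also overlapped at the brighter HLA-DMA probe (1145 and 784 against 1145 and 1116). The same held at the brighter HLA-DPA1 probe (530 and 430 against 526 and 534). CTSS (62 and 49 against 301 and 377) was higher on both PAK1 shRNA arrays before normalization. So was the downstream CIITA probe (128 and 111 against 200 and 197).

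HLA-DRA, the nearly uniform alpha partner of every HLA-DR beta chain, did not rise. It read 6.44 and 6.37 in control cells and 6.20 and 6.29 in PAK1 shRNA cells (chr6:32412448-32412507, plus strand), and was well above background on the 2 control arrays only. The level in PAK1 shRNA cells is therefore only a bound, and the fitted difference missed the threshold (-0.16, 95% confidence interval -0.35 to 0.027, adjusted p = 0.117 by limma), and median centring turned the sign to 0.17. HLA-DRA passed the threshold with an offset of 16 (-0.28), with Agilent's processed signal (-1.02) and with normexp fitted on all spots and median centring (-1.69).

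HLA-DQA1, the alpha chain of HLA-DQ, was decided by 1 array. Its brighter probe (chr6:32609287-32609758, plus strand, again spanning more than the probe's 60 bases) read 6.74 and 8.03 in control cells and 6.71 and 6.60 in PAK1 shRNA cells. Control array 2 stood far above the other 3 arrays, and the difference of -0.73 carried an SE of 0.36 (95% confidence interval -1.60 to 0.14, adjusted p = 0.125 by limma). Without control array 2 the HLA-DQA1 difference was -0.085, and without control array 1 it was -1.32 (adjusted p = 0.000241 by limma). With the replicate number as a block it passed the threshold (adjusted p = 0.0201), as it did with normexp fitted on all spots and median centring (-1.46). The other HLA-DQA1 probe (chr6:32610501-32610560) read 6.33 and 6.27 against 6.12 and 6.44, was well above background on 1 array of each group and was not tested. On that probe control array 2 did not stand apart.

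CD74, the invariant chain on which all class II pairs assemble, was not well above background on any of the 4 arrays. Its only probe (chr5:149792222-149792281, minus strand) read 6.25 and 6.34 in control cells and 6.10 and 6.29 in PAK1 shRNA cells, so no difference could be tested. Of the 17 member probes, 10 were well above background on all 4 arrays, 6 on some and 1, that of CD74, on none, and 0 were saturated. Among the 15 probes that could be tested apart, 6 were called higher and 0 lower, beside 31.1% of all probes tested that were called higher and 63.9% called in either direction.

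**Figure D2:**
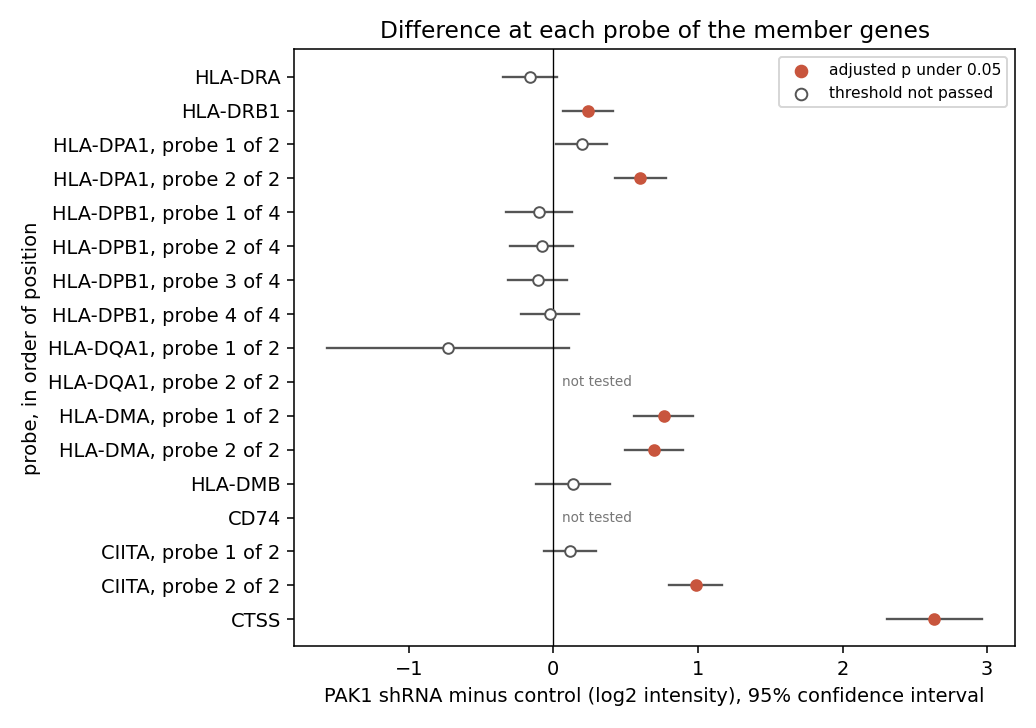
Difference between PAK1 shRNA and control cells (horizontal axis, log2 intensity, with 95% confidence intervals) at each probe of the 10 genes (vertical axis, probes of a gene in order of position). Filled points passed an adjusted p of 0.05. The probes of HLA-DMA agree at 0.76 and 0.70, those of CIITA differ at 0.12 and 0.98, and the interval of HLA-DQA1 is wide; the CTSS point is the fitted difference from a control level at background.

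The other class II genes on the array were counted next. Of 9 listed, 7 were tested, 5 rose and 0 fell, with a median difference of 0.35. HLA-DQB1, the partner of HLA-DQA1, rose by 0.35 (adjusted p = 0.00767 by limma), from 7.91 and 7.79 to 8.23 and 8.17, although its other probe gave 0.032 (adjusted p = 0.812). The probes named for the further HLA-DRB copies HLA-DRB5, HLA-DRB4 and HLA-DRB3 rose by 0.67, 0.52 and 0.23, each called by limma. These copies share sequence with HLA-DRB1, so their probes are not separate evidence, and which copy gave each signal is uncertain. The 5 that rose include these copies. HLA-DQB2 was at 0.16 (adjusted p = 0.167), HLA-DQA2 did not pass the filter and HLA-DRB6 was at background on all arrays.

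Of the HLA-DO chains, which together restrain HLA-DM, HLA-DOB rose and HLA-DOA did not pass the test at the probe that stands for it. HLA-DOB (chr6:32780663-32780722, minus strand) read 9.87 and 9.59 in control cells and 12.38 and 12.42 in PAK1 shRNA cells, a rise of 2.68 (SE 0.11, adjusted p = 2.80e-06 by limma), or 639% of control. In the order of genes along the chromosome HLA-DOB stands between HLA-DQB2 and TAP2, followed by PSMB8, TAP1 and PSMB9. Its neighbor TAP2, on the same strand, rose by 2.16 and 2.47 at its 2 probes, whereas its neighbor on the other side, HLA-DQB2, did not pass the test. HLA-DOA read 8.26 and 6.87 against 7.02 and 7.12 at its brighter probe, where control array 1 stood apart (difference -0.50, adjusted p = 0.307). The other HLA-DOA probe read 7.54 and 7.42 against 7.02 and 6.92, a fall with all arrays apart (-0.51, adjusted p = 0.00129 by limma with each probe tested apart).

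Upstream of the class II genes, 8 promoter factors were all called, 3 higher and 5 lower, with a median of -0.66. RFX5 (0.85), RFXANK (0.79) and CREB1 (0.75) rose, while RFXAP, the remaining subunit of the RFX complex, fell by 1.31. All NF-Y subunits fell: NFYA (-0.98), NFYB (-1.38) and NFYC (-0.34), as did ATF1 (-1.21). The mRNAs of the X box complex thus moved in both directions, and those of the Y box complex were all lower.

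Of the route from interferon gamma to CIITA, 9 of 10 genes tested rose and 0 fell, with a median of 1.37. IRF1, which acts on the interferon-responsive CIITA promoter, read 9.62 and 9.64 in control cells and 12.57 and 12.65 in PAK1 shRNA cells (2.98, adjusted p = 5.39e-07 by limma), JAK2 rose by 3.22, and SOCS1, the feedback inhibitor of the kinases, rose by 5.62 from 7.72 and 7.72 to 13.16 and 13.53. The receptor chain IFNGR2 rose by 0.71 and IFNGR1 was at 0.008 (adjusted p = 0.946). IFNG itself was not well above background on any array, at 6.04 and 6.08 against 6.08 and 6.12. PRDM1, a repressor of CIITA, also rose (1.45). The CIITA difference of 0.98 stood below those of IRF1, JAK2 and SOCS1, without a test of these genes against each other.

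Among 10 other endosomal genes tested, 5 rose and 4 fell, with a median of 0.19. The legumain gene LGMN, also a protease of antigen processing, rose by 2.04, CST3, an inhibitor of cathepsins including cathepsin S, by 1.73 and CTSL by 0.90. CTSF fell by 1.78, CTSZ by 0.90, CTSV by 0.70 and CTSH by 0.63. CTSD rose by 0.61, and CTSB was at -0.23 (adjusted p = 0.111). Of the 7 cathepsins listed beside CTSS, 2 thus rose and 4 fell. IFI30, the thiol reductase of antigen processing, lost a spot to a quality flag on PAK1 shRNA array 1 and was tested only with such spots kept, where it rose by 1.79 (adjusted p = 1.01e-05 by limma).

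Of 8 genes of surface turnover and costimulation, 1 rose, 1 fell and 6 did not pass the test, with a median of -0.021. ICAM1, the adhesion partner of T cells, rose by 3.34 and ICOSLG fell by 1.49. The costimulators CD80 (-0.016, adjusted p = 0.880), CD86 (-0.23) and CD40 (0.22), and the ubiquitin ligases that remove class II from the surface, MARCHF1 (-0.027) and MARCHF8 (0.045), did not pass the test.

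Class I presentation genes are given for comparison: 12 of 12 rose, with differences from 0.90 (ERAP1) to 4.09 (NLRC5, the coactivator of class I genes and a relative of CIITA) and a median of 2.13. TAP1, the peptide transporter, rose by 3.87. HLA-C was saturated on both PAK1 shRNA arrays and B2M on 1, so their differences are lower bounds. The lowest class I difference, 0.90, lay above those of 7 of the 9 class II members tested, CIITA and CTSS being the exceptions. Class I and class II differences were not tested against each other.

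Since class II genes are typical of blood cells, markers of other cells were read beside them. The arrays are of bulk RNA, in which more cells of a type and more RNA per cell cannot be told apart. Of 12 blood cell markers, 10 were tested, 5 rose and 0 fell, with a median of 0.30, and their summed intensity on the linear scale (11 genes) was between 27271 and 29772 in control cells and between 58552 and 61739 in PAK1 shRNA cells. Most of that sum was CD14, at 14.22 and 14.15 against 15.42 and 15.55, and ITGAX rose by 2.32. The other markers called higher were CSF1R (0.65), CD79A (0.48) and ITGAM (0.46). PTPRC, carried by all white blood cells, read 7.64 and 7.79 against 7.85 and 7.84 and did not pass the test (0.12, adjusted p = 0.227), nor did SPI1, MS4A1 or CD3E, and CLEC9A was at background on all arrays. Of 8 basal epithelial markers tested, all were well above background, 2 rose (CDH1 and KRT6A) and 5 fell (KRT5, KRT14, KRT17, TP63 and EGFR), with a summed intensity between 387380 and 430840 against 314200 and 319770. LAMB3, also listed, is not in that sum, since it lost a spot to a quality flag on PAK1 shRNA array 2. With such spots kept LAMB3 rose by 1.34 (adjusted p = 5.11e-05 by limma). Of 3 endothelial markers, VWF rose by 0.37 and PECAM1 fell by 1.56, with a summed intensity of 958 and 999 against 785 and 752. The part of these markers in the class II differences was not tested.

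HLA-DMA served as the reference for a search of similar patterns because its probe was the brightest of the members tested, which does not rank their expression. The genes most like HLA-DMA were found by the root mean square distance of their 4 values, each minus the control mean. The nearest 5 were KIAA0556, ADAMTS13, MIA3, STAT6 and the transcript listed as ENST00000355813, at distances from 0.013 to 0.016. Their differences lay between 0.74 and 0.78, as against 0.76 for HLA-DMA. In all, 663 genes lay within 0.1 of HLA-DMA, so its pattern on 4 arrays was shared widely.

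**Figure D3:**
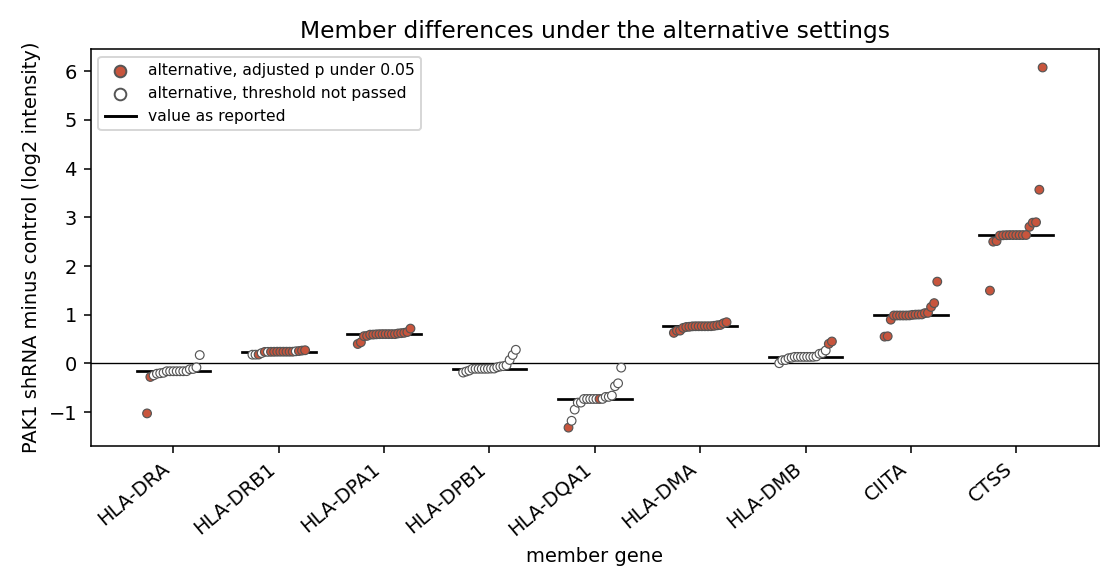
Differences of the 9 tested class II genes (horizontal axis) between PAK1 shRNA and control cells (vertical axis, log2 intensity) as reported (black bars) and under the other settings named for the processing (points, filled where the adjusted p was under 0.05). CIITA, CTSS, HLA-DMA and HLA-DPA1 are above 0 and filled at every point plotted (normexp fitted on all spots with median centring, which turned CIITA to -0.21, is not plotted), from 0.55 to 1.68 for CIITA and from 0.40 to 0.72 for HLA-DPA1, whereas HLA-DPB1 and HLA-DRA cross 0.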

How the data were processed

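RNA of 2 control and 2 PAK1 shRNA samples was labelled with Cy3 and hybridized to Agilent whole genome arrays by the authors, who read them with Agilent Feature Extraction 9.5 (per the labels). The deposited scanner files hold one spot intensity per row, not normalized, with quality flags of other kinds; the deposited table of log2 values holds the authors' processed values, background corrected by normexp and quantile normalized per the methods, and was used as an alternative. Its column medians were between 9.40 and 9.42, and its scale and direction matched the scanner values.

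Mean spot intensities were background corrected here with normexp (limma 3.58.1 in R 4.3.3, offset 50) fitted without spots of flagged background. A fit on all spots gave a background mean of -666 and -740 on the control arrays against -10.7 and -10.2 on the PAK1 shRNA arrays; 8 and 18 spots on the control arrays and 0 on the others had a local background over 100, and the part of these spots alone was not tested. Control spots and outlier spots were left out, arrays were quantile normalized and spots of a probe averaged. A probe was kept if at least 0.5 of its spots were well above background on each array of either group, and the brightest probe stood for its gene. Groups were compared with lmFit and eBayes, two-sided. For a probe at background in a group, the fold is a bound against the higher of its own level and the lowest level well above background. On data simulated with 200 changed genes of 21911, the test recovered 94% of changes of 1 and 13% of changes of 0.5 on the log2 scale. On the arrays 63% of genes were called, which makes the adjusted threshold less strict than in the simulation. A difference of 0.24 (HLA-DRB1) was called there, so the simulated shares do not give the recovery on the arrays. With 2 arrays per group, their number limits the precision.

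Genes named are the 10 members with every probe, PAK1, the listed genes and the 5 genes nearest to HLA-DMA. PSMB8, PSMB9 and the neighbors of HLA-DOB were named after its value had been seen. Members, lists, the spots behind the normexp fit and the tests were chosen with earlier results of these data known. The values of some listed genes are not reported here. LYZ was not found on the array under a matched name. The replicate numbers were not taken as pairs of arrays, and whether the samples were handled in pairs was not settled here. Gene names are those of the array, matched to current symbols through RefSeq.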

Additional observations from a re-analysis of the deposited data

How the results depend on the processing

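The members were recomputed under 18 other settings, and 2 more were chosen after seeing the data (each probe apart, and normexp fitted on all spots with median centring). CIITA, HLA-DMA and HLA-DPA1 kept their direction and their call under all 18, and CTSS under 17; the filter that asks for signal on all 4 arrays left CTSS and HLA-DRA untested. Over the 9 members and every setting, 149 values kept direction and call, 9 gained a call in the same direction, 5 lost it in the same direction (all of HLA-DRB1) and 6 changed sign, of which CIITA also lost its call and HLA-DMB gained one. Scaling Agilent's processed signal to its 75th percentile gave a median of the members of 0.45, 1 member called lower (HLA-DRA), HLA-DPB1 at 0.28 and HLA-DMB past the threshold at 0.45. Median centring gave a median of 0.40, HLA-DPB1 at 0.17, HLA-DRA at 0.17 and HLA-DMB past the threshold at 0.40. These 2 settings moved the median of all genes to 0.117 and 0.137. HLA-DPB1 was at 0.072 in the authors' processed values. The offset of 16 called 1 member lower (HLA-DRA). With normexp fitted on all spots and median centring the median of the members was -0.21, 4 members were called lower (HLA-DRA at -1.69, HLA-DQA1 at -1.46, HLA-DPB1 at -1.41 and HLA-DMB at -1.17), CIITA was at -0.21 and PAK1 itself at 0.16. Leaving out each array in turn gave 4 to 5 members higher and 0 to 1 lower, the 1 being HLA-DQA1 without control array 1; the lone array of a group was then assumed to vary like the other group. An ordinary equal-variance t-test, in place of the moderated test that the methods name for the arrays, called 4348 genes higher and 4785 lower after Benjamini-Hochberg. It called 5 members higher. Arrays with the same number deviated with a correlation of 0.0104 over 21911 genes. This shows no shared deviation but cannot show whether the samples were handled in pairs. The replicate block called 1 member lower, HLA-DQA1 (-0.73, adjusted p = 0.0201 by limma), changing no other member's call. The cause of these changes was not tested. Signal over background limits HLA-DRA, HLA-DPB1, HLA-DQA1, HLA-DMB, CD74 and the control levels of CIITA and CTSS. With the offset of 16 the bound of CTSS was 10.2-fold and the CIITA difference was 1.24.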
